A study of Mus musculus with 25 samples.

Results

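The 10 genes described here make up the cytosolic nucleic acid sensing machinery of the macrophage, and were taken by symbol from the 24411 genes counted in every sample. They are the RNA sensors Ddx58 (RIG-I), Ifih1 (MDA5) and Dhx58 (LGP2), their adaptor Mavs, the DNA sensors Mb21d1 (cGAS), Ifi204 and Ifi205, the DNA-sensing adaptor Tmem173 (STING), the Z-form nucleic acid sensor Zbp1, and the kinase Tbk1. They were listed by their known function, with earlier results of these data known, and all 10 are accounted for below. The levels come from RNA-seq of 25 samples in 9 conditions, and the study asked how the transcriptome moves when macrophages are activated classically or alternatively. Bone marrow-derived macrophages (BMDMs) of C57BL/6 mice, grown from bone marrow in macrophage colony-stimulating factor (M-CSF) for 4 days, form 7 groups of 3 samples. Unstimulated BMDMs, labelled as cultured for 4 h, are the single control of every BMDM comparison, so comparisons with control share these 3 samples. The other BMDM groups had IFN-γ at 100 U/ml with LPS at 100 ng/ml for 1, 4, 12 or 24 h (IFN-γ-primed LPS, the classical or M1 stimulus), IL-4 at 10 ng/ml for 12 h, or IL-13 at 10 ng/ml for 12 h (the alternative or M2 stimuli). The study describes IFN-γ as a pretreatment and gives no length for it, so how long IFN-γ had acted at each time is not known. RAW264.7 is an established mouse macrophage cell line, which the study describes as derived from virus-infected Balb/c mice. It forms 2 groups of 2 samples, cultured for 4 h or given LPS alone at 100 ng/ml for 4 h. BMDMs given LPS without IFN-γ were not analysed here.

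RIG-I and MDA5 bind viral RNA in the cytosol and, through the mitochondrial adaptor MAVS, switch on the kinase TBK1, while LGP2 is a relative of both that lacks their signalling domains and tunes them. cGAS binds cytosolic DNA and makes the cyclic dinucleotide that activates STING, which also uses TBK1, and the PYHIN proteins encoded by Ifi204 and Ifi205 bind DNA. TBK1 activates the factor IRF3, which turns on interferon beta. Secreted interferons then raise many sensor genes through STAT and IRF factors that bind interferon-stimulated response elements (ISREs), so that several of these sensors are themselves interferon-stimulated genes.

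The RefSeq promoter table (GRCm38.p6, the mm10 assembly) held a window of 300 bases, 250 before and 50 after the start of transcription, for 6 of the 10 members (Ifi205, Ifih1, Ddx58, Mb21d1, Tbk1 and Mavs). Each was searched on both strands for an ISRE core written GAAANNGAAA, which read on the other strand is TTTCNNTTTC. The core was present in 3 of the 6, Ifi205, Ifih1 and Ddx58, against 3.44% of all 32851 promoters of the table. The windows of these 3 genes are shown because they hold the core, in the order of their rise at 4 h of IFN-γ-primed LPS, given below. Mb21d1 and Tbk1, whose windows hold no core, also rose at 4 h. Capitals mark the core as it reads along the gene's own strand. The longest run holds the 250 bases before the Ifi205 start, with a core at positions −134 to −125, on the minus strand of chr1:174031756-174032005.
Ifi205 upstream: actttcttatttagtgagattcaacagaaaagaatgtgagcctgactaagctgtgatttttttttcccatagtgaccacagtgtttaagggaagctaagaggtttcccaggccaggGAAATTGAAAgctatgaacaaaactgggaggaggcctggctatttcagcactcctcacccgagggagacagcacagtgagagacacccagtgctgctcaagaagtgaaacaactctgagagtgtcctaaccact
A second Ifi205 match, in the opposite orientation, lay 24 to 33 bases after the start, on the minus strand of chr1:174031713-174031742.
Ifi205 after the start: ataccccattTTTCACTTTCtcagttactg
The Ifih1 match lay 33 to 42 bases after the start, on the minus strand of chr2:62646206-62646235.
Ifih1 after the start: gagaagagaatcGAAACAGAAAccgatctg
The Ddx58 match lay 3 to 12 bases after the start in the opposite orientation, on the minus strand of chr4:40239804-40239833.
Ddx58 around the start: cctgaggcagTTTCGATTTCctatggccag
The interferon gamma-activated site written TTCNNNGAA was in 0 of the 6 windows and in 8.3% of all promoters, and the NF-kB site written GGGNNTTTCC, or GGAAANNCCC on the other strand, was in 0 of the 6 and in 1.63%. A match to these letters is a description of the window and not evidence of binding, and no core in the windows of Mb21d1, Tbk1 and Mavs says only that these letters are not there.

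**Figure D1:**
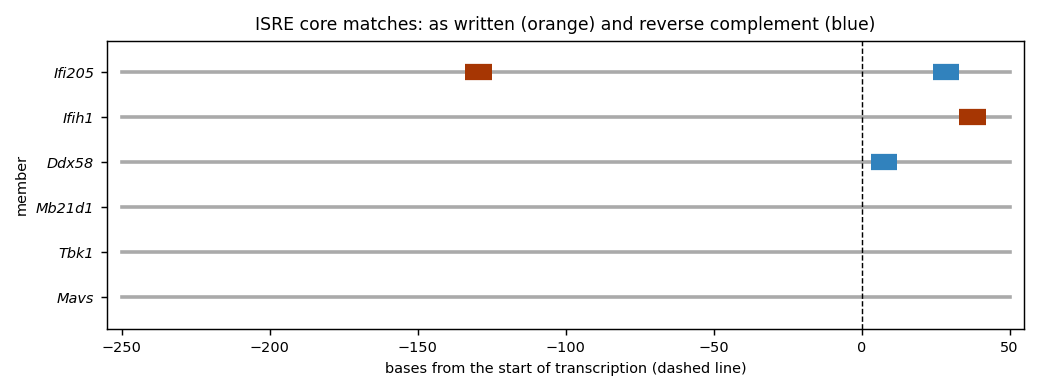
Map of the 6 promoter windows, with distance from the start of transcription in bases on the horizontal axis and 1 grey line per member. Blocks mark ISRE core matches as written (orange) or as the reverse complement (blue): Ifi205 has 2 matches, Ifih1 and Ddx58 have 1 each, and Mb21d1, Tbk1 and Mavs have 0.

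In GENCODE M21, Ddx58 spans 40203773 to 40239828 of chromosome 4, and Ifih1 spans 62595798 to 62646255 of chromosome 2. Mavs (131234063 to 131248025) and Zbp1 (173206612 to 173218923) are also on chromosome 2, and Dhx58 lies at 100694884 to 100704271 of chromosome 11. The PYHIN genes are close neighbours on chromosome 1, Ifi204 at 173747293 to 173766943 and Ifi205 at 174011998 to 174031810, among near-identical relatives. Mb21d1, named Cgas there, spans 78430526 to 78443237 of chromosome 9, Tbk1 spans 121546455 to 121586787 of chromosome 10, and Tmem173 lies on chromosome 18.

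Each sample held 2378639 to 3357300 counts on genes, and Rn45s, the ribosomal RNA precursor, took 20.1% to 39.8% of them. Levels are therefore given as CPM, the count for every 1000000 of the remaining 1502618 to 2532496 counts, on which scale 1 count is worth 0.395 to 0.666 CPM. Macrophage markers (6 of the 7 listed were in the files) were all detected in BMDMs, at a summed 2129 to 5926 CPM, while in RAW264.7 the sum was 823 to 1236 CPM and Mertk was at 0. T cell and erythroid markers were at 0 in all 25 samples, those of B cells summed to at most 0.511 CPM and those of neutrophils to at most 9.11 CPM. Fibroblast markers (Col1a1, Col3a1 and Pdgfra) summed to 23.2 to 36.9 CPM in control BMDMs, 4.33 to 16.9 CPM after 12 h of IFN-γ-primed LPS and 0 in RAW264.7. Their part in the results was not tested, nor was that of a difference between libraries in the antisense share of Rn45s reads, which was 0.0386% to 0.122% in the 12 control and 1, 4 and 12 h IFN-γ-primed LPS libraries and 0.00603% to 0.0214% in the 9 libraries from IL-4, IL-13 and 24 h of IFN-γ-primed LPS.

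At 4 h of IFN-γ-primed LPS all 7 sensors were higher than in control, and the adaptors and the kinase had moved less than any sensor. After 1, 4, 12 and 24 h, 6, 8, 8 and 7 of the 10 members were higher than in control BMDMs at an FDR of at most 0.01 (quasi-likelihood test of edgeR, Benjamini-Hochberg adjustment over 9568 genes). Of all genes tested, 14.7%, 26%, 23.9% and 23.9% were called higher at these times. The adaptor Mavs was lower at 4 h and the adaptor Tmem173 at 12 h, where 25.6% and 23.4% of all genes were called lower. At 1 h and 24 h, 0 members were lower by edgeR or DESeq2, and 0 at an unadjusted p under 0.05 (11.3% and 21.3% of all genes were called lower). With a log2 cutoff of 1.5 added, 5, 7, 7 and 6 members stayed higher, against 5.04%, 11.4%, 8.87% and 7.93% of all genes. The median log2 fold change of the 10 members was 1.48, 4.32, 3.83 and 2.93 at the 4 times, and the median over all genes lay between −0.08 and 0.02.

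Fold changes use TMM, a scaling that holds the bulk of genes level, whereas CPM do not, so that the 2 scales differ. Relative to TMM, scaling by total counts moved the median log2 fold change of all genes by −0.19, −0.53, −0.31 and −0.22 after 1, 4, 12 and 24 h. Under that scaling the share of called genes that were higher was 24.4% instead of 50.4% at 4 h, and it was 35.8% instead of 56.6% at 1 h, 31.4% instead of 50.6% at 12 h and 36.2% instead of 52.8% at 24 h. In bulk RNA, fewer cells of a type and less RNA per cell cannot be told apart.

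**Figure D2:**
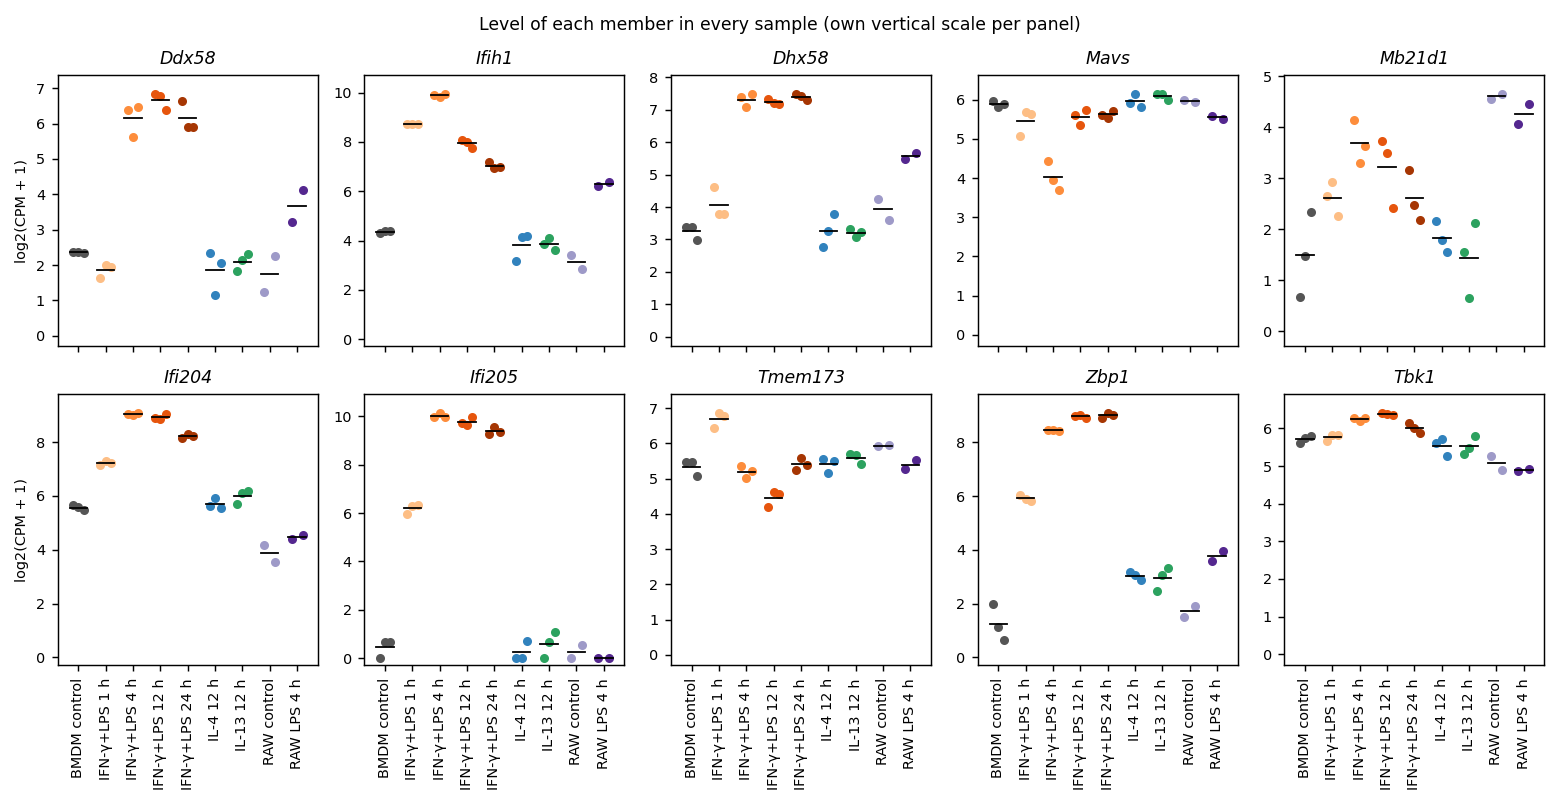
Level of each of the 10 members in every sample, as log2(CPM + 1) on the vertical axis of each panel, with the 9 conditions on the horizontal axis. Points are single samples and black lines are group means. The IFN-γ-primed LPS samples at 4, 12 and 24 h stand above control for the sensors, except Mb21d1 at 24 h, which overlaps with control. Mavs is lowest at 4 h, Tmem173 is highest at 1 h and Mb21d1 is highest in RAW264.7 control.

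**Figure D3:**
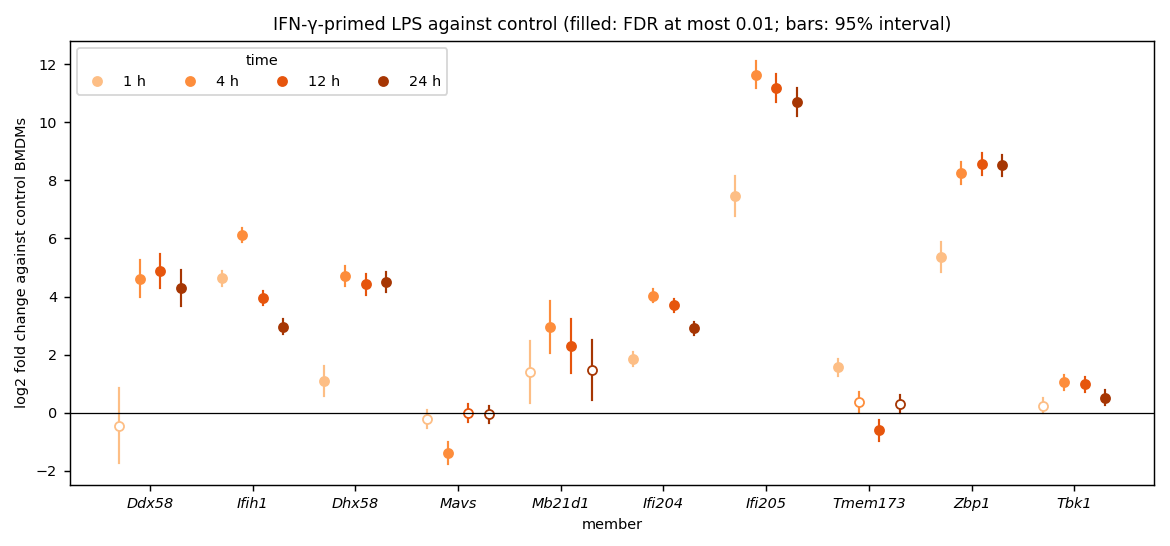
Log2 fold change of each member against control BMDMs (vertical axis) at 1, 4, 12 and 24 h of IFN-γ-primed LPS, 3 samples per group. Points are estimates from edgeR, bars are 95% intervals, and filled points passed an FDR of 0.01; Zbp1 stays above 8 from 4 h on, Ifih1 drops from 6.13 at 4 h to 2.96 at 24 h, and Mavs is below 0 only at 4 h among its filled points.

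Ifih1, which encodes the sensor of long double-stranded RNA, was among the earliest to move. Its level in the 3 control samples was 19.0, 19.7 and 19.8 CPM. At 1 h it was 424, 421 and 426 CPM, with no overlap with control, and the replicates of each of these groups lay within a few CPM of each other. This was a 24.7-fold rise (log2 fold change 4.62 ± 0.12 SE, FDR 2.8e-33). The 4 h samples, at 970.3, 914 and 982 CPM, were the highest of all 25 and stood 70.2-fold above control (log2 6.13 ± 0.12, FDR 4.89e-39). Ifih1 then fell in each later interval. At 12 h it was 269, 252 and 218 CPM (log2 −2.18 ± 0.09 against 4 h, FDR 3.1e-25), and at 24 h it was 143, 124 and 125 CPM (log2 −0.996 ± 0.095 against 12 h, FDR 1.06e-11). The groups at 12 h and 24 h did not overlap with their neighbours in time, and at 24 h Ifih1 was still 7.79-fold above control.

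Ddx58 encodes RIG-I, the sensor of RNA with a 5′ triphosphate. It did not share the early rise: control samples had 4.16, 4.17 and 4.07 CPM, and the 1 h samples had 2.13, 3.02 and 2.85 CPM, all below control on 4 to 7 counts each. The log2 fold change of −0.44 ± 0.65 at 1 h did not pass (FDR 0.648, 95% interval −1.72 to 0.84). At 4 h it reached 82.5, 47.9 and 86.7 CPM, all far above control, a 24.5-fold rise (log2 4.62 ± 0.32, FDR 2.62e-12). Its highest mean was at 12 h, with samples at 113, 108 and 82.3 CPM, which overlapped with those at 4 h (log2 difference 0.27 ± 0.18, FDR 0.23). At 24 h the samples had 98.2, 58.4 and 59.2 CPM, 1 of them within the range at 12 h, and the log2 difference from 12 h of −0.58 ± 0.17 did not pass (FDR 0.0167). This last difference passed with the replicate number as a block (−0.59, FDR 0.000725), with DESeq2 size factors (−0.62, FDR 0.00726), with Rn45s kept (−0.62, FDR 0.0096) and with no filter (−0.58, FDR 7.87e-05). It also passed without 24 h replicate 1 (−0.86, FDR 2e-05) or 12 h replicate 3 (−0.70, FDR 0.00396).

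Dhx58 encodes LGP2. Control samples had 9.51, 9.53 and 6.98 CPM, and at 1 h the samples had 23.4, 12.7 and 12.8 CPM, none of them within the control range. The 1 h rise was 2.13-fold (log2 1.09 ± 0.26, FDR 0.000812), and without 1 h replicate 1 it was 0.76 on the log2 scale and did not pass (FDR 0.0389). From 4 h on, Dhx58 held a plateau. It was 167, 135 and 177 CPM at 4 h, 160.4, 148 and 143 CPM at 12 h and 179, 172 and 156 CPM at 24 h, with overlapping samples, and neither the step from 4 to 12 h (log2 −0.30 ± 0.11, FDR 0.0302) nor that from 12 to 24 h (0.08 ± 0.11, FDR 0.686) passed. The first of these steps passed without 4 h replicate 2 (log2 −0.41, FDR 0.00692). Against control, the rises were 26.2-fold at 4 h, 21.3-fold at 12 h and 22.5-fold at 24 h.

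Mavs encodes the mitochondrial adaptor on which RIG-I and MDA5 converge, and its course ran opposite to theirs at 4 h. Control samples had 61.8, 55.4 and 58.8 CPM. At 1 h the values were 32.4, 50.8 and 49.0 CPM, below all controls in CPM, although the log2 fold change of −0.23 ± 0.16 did not pass (FDR 0.271). At 4 h they were 20.6, 14.5 and 12.0 CPM, the lowest of all 25 samples, on 20 to 31 counts each. The log2 fold change fell by 1.39 (SE 0.20, FDR 4.12e-08), and with total-count scaling it fell by 1.91. Mavs then rose by a log2 fold change of 1.37 ± 0.20 from 4 to 12 h (FDR 1.28e-07), to 48.0, 40.0 and 52.0 CPM, and was at 47.9, 45.5 and 51.7 CPM at 24 h. Neither time differed from control in the test (log2 −0.01 ± 0.15 at 12 h, FDR 0.945, and −0.05 ± 0.15 at 24 h, FDR 0.786), with 95% intervals of −0.32 to 0.29 and −0.35 to 0.24.

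**Figure D4:**
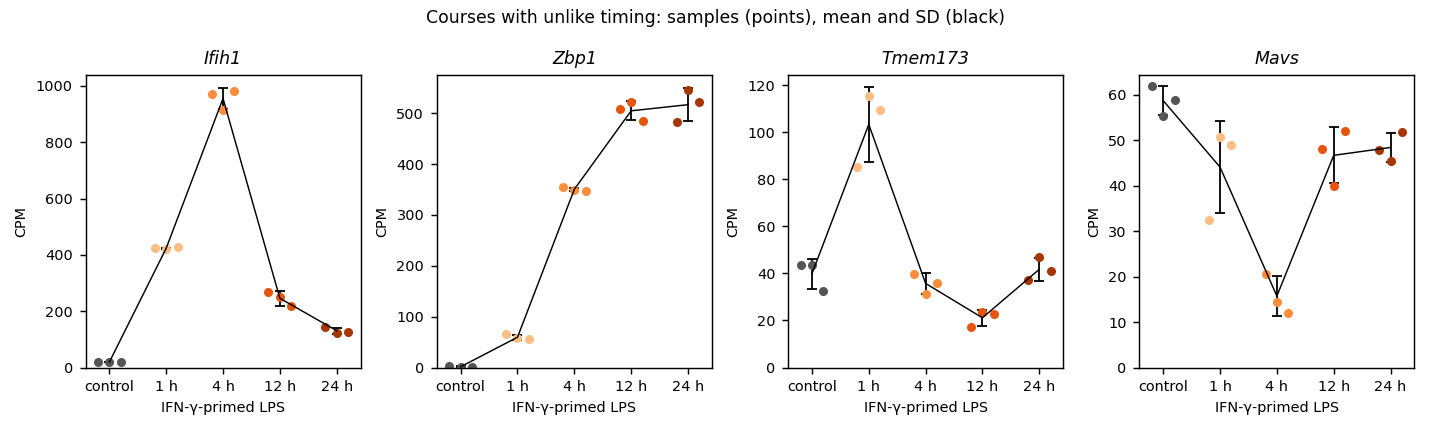
CPM (vertical axis, from 0) of Ifih1, Zbp1, Tmem173 and Mavs in control BMDMs and after 1, 4, 12 and 24 h of IFN-γ-primed LPS; points are the 3 samples of each group, and black lines and bars are mean and SD. Ifih1 peaks at 4 h at 956 CPM, Zbp1 stays near 500 CPM from 12 h, Tmem173 peaks at 1 h at 103 CPM, and Mavs has its lowest mean, 15.7 CPM, at 4 h.

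Mb21d1, which encodes the DNA sensor cGAS, had few counts in every BMDM group. Control samples had 0.595, 1.79 and 4.07 CPM, which are 1, 3 and 7 counts. At 1 h it was 5.32, 6.65 and 3.81 CPM, overlapping with control, and the log2 fold change of 1.41 ± 0.54 did not pass (FDR 0.0386). At 4 h it was 16.6, 8.91 and 11.4 CPM, all above control, a 7.82-fold rise (log2 2.97 ± 0.46, FDR 2.83e-07). At 12 h it was 12.3, 10.3 and 4.33 CPM, and the rise was 4.9-fold (log2 2.29 ± 0.48, FDR 6.66e-05). The 24 h samples, at 7.91, 4.6 and 3.55 CPM, overlapped with control again (log2 1.47 ± 0.52, FDR 0.0154). Leaving out control replicate 3, the one with 7 counts, raised the log2 fold change to 3.80 at 4 h and 3.13 at 12 h. The 24 h change passed without that sample (log2 2.30, FDR 0.00371), with no filter (1.505, FDR 0.00638) and without 24 h replicate 3 (1.73, FDR 0.00713), and the rise from 1 to 4 h of 1.56 (FDR 0.000517) was 1.32 and just missed the cutoff without 4 h replicate 1 (FDR 0.01002).

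Ifi205, a PYHIN gene, went from almost no counts to the highest level of any member per base of transcript. The 3 control libraries held 0, 1 and 1 counts. At 1 h the level was 61.7, 78.0 and 80.4 CPM, and at 4 h it was 1005, 1120.1 and 1010.5 CPM, with no overlap between control, 1 h and 4 h. The level then declined, to 839, 803 and 989 CPM at 12 h and 619, 742 and 651 CPM at 24 h, again without overlap between the times. Because the control rests on 2 counts, a ratio of summed counts, scaled by library totals, is given with its 95% counting interval, which covers counting error only. This ratio was 186 after 1 h (interval 51.3 to 1545) and 2662 after 4 h (interval 737 to 21988). It was 2239 after 12 h (interval 619.6 to 18495) and 1701 after 24 h (interval 470.5 to 14047). The later steps do not involve the control, and both passed, with log2 fold changes of −0.47 ± 0.10 from 4 to 12 h (FDR 9.29e-05) and −0.47 ± 0.10 from 12 to 24 h (FDR 0.000231). With total-count scaling the first was −0.25 and did not pass (FDR 0.0184).

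Ifi204, its neighbour on chromosome 1, had a measurable level in unstimulated cells, at 49.9, 46.5 and 43.1 CPM. It was 139.8, 156 and 149 CPM at 1 h, a 3.63-fold rise (log2 1.86 ± 0.12, FDR 3.03e-18). At 4 h it was 519.8, 518 and 539 CPM, 16.2-fold above control (log2 4.02 ± 0.11, FDR 3.99e-33), and the 3 groups did not overlap. The 12 h samples, at 479.8, 461 and 527 CPM, overlapped with those at 4 h. The log2 change between them of −0.32 ± 0.09 passed (FDR 0.00264), but it was −0.10 with total-count scaling (FDR 0.319), −0.26 with at least 10 counts in every sample (FDR 0.0116) and −0.28 with only the groups compared (FDR 0.0252). It also missed the cutoff without 4 h replicate 3 (−0.31, FDR 0.0128), without 12 h replicate 1 (−0.29, FDR 0.0159) and without 12 h replicate 2 (−0.27, FDR 0.0302). At 24 h Ifi204 was 283, 317 and 297 CPM, below all 12 h samples (log2 −0.80 ± 0.09, FDR 1.26e-09) and 7.5-fold above control. Uniquely mapped reads were counted, so levels of Ifi204 and Ifi205 are uncertain where they are identical to other PYHIN genes.

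Tmem173 encodes STING, the adaptor downstream of cGAS, and it was the only member whose highest mean was at 1 h. Control samples had 43.4, 43.5 and 32.6 CPM, and the 1 h samples had 85.1, 115 and 109 CPM, all above control. This was a 2.95-fold rise (log2 1.56 ± 0.14, FDR 9.16e-13). By 4 h it had fallen to 39.9, 31.2 and 36.1 CPM (log2 −1.20 ± 0.15 against 1 h, FDR 2.51e-09), within the control range in part, and the change from control was 0.36 ± 0.17 (FDR 0.0668), and it was −0.16 with total-count scaling. At 12 h the samples had 17.4, 23.4 and 22.6 CPM, all below control (log2 −0.61 ± 0.19, FDR 0.00484), and at 24 h they had 37.2, 46.9 and 41.1 CPM, above all 12 h samples by a log2 fold change of 0.90 ± 0.18 (FDR 0.000106). The 24 h value did not differ from control in the test (0.29 ± 0.16, FDR 0.12). The 12 h decrease was close to the cutoff and missed it with DESeq2 (FDR 0.014) and without control replicate 1 (−0.54, FDR 0.0292), control replicate 2 (−0.53, FDR 0.0327) or 12 h replicate 1 (−0.45, FDR 0.0584).

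Zbp1, which senses nucleic acids in the Z form and can engage RIPK3 in cell death, rose early and stayed high. Control samples had 2.97, 1.19 and 0.582 CPM, on 5, 2 and 1 counts. The 1 h samples had 65.4, 58.0 and 55.2 CPM, a 41.0-fold rise (log2 5.36 ± 0.26, FDR 5.9e-23). At 4 h the level was 354, 349.6 and 347 CPM, 305-fold above control (log2 8.25 ± 0.20, FDR 3.64e-36), and control, 1 h and 4 h did not overlap. These folds rest on the 8 control counts, and without control replicate 1, which held 5 of them, the log2 fold change was 6.14 at 1 h, 9.03 at 4 h and 9.34 at 12 h, against 8.56 at 12 h with all samples. Zbp1 was 508, 521 and 484 CPM at 12 h and 482, 545 and 522 CPM at 24 h, which overlapped with each other (log2 −0.05 ± 0.09, FDR 0.755). The step from 4 to 12 h was 0.31 ± 0.09 (FDR 0.00477), but it missed the cutoff when 1 of 5 libraries was left out, with values of 0.29 (FDR 0.0157), 0.31 (FDR 0.0143) and 0.29 (FDR 0.0233) without 4 h replicates 1, 2 and 3, and of 0.31 (FDR 0.0116) and 0.30 (FDR 0.0185) without 12 h replicates 1 and 2.

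Tbk1, the kinase shared by the MAVS and STING arms, changed least among the members called higher at 4 h. Control samples had 48.2, 52.4 and 54.7 CPM, and the 1 h samples, at 49.4, 56.2 and 56.1 CPM, overlapped with them (log2 0.25 ± 0.14, FDR 0.157). It was 75.9, 71.8 and 76.4 CPM at 4 h, a 2.07-fold rise (log2 1.05 ± 0.13, FDR 1.54e-09), and 84.3, 82.2 and 80.9 CPM at 12 h, a 1.97-fold rise (log2 0.98 ± 0.13, FDR 4.81e-09). With total-count scaling the log2 fold changes were 0.53 at 4 h and 0.67 at 12 h, which also passed (FDR 0.000443 and 1.22e-05). At 24 h the samples had 70.2, 63.0 and 58.0 CPM, above all controls and below all 12 h samples. This was a log2 fold change of 0.52 ± 0.13 against control (FDR 0.000606), which was 0.30 with total-count scaling and did not pass (FDR 0.0458). The fall from 12 to 24 h was −0.46 ± 0.12 (FDR 0.00287), and it missed the cutoff without 24 h replicate 2 (−0.46, FDR 0.0106) or 24 h replicate 3 (−0.39, FDR 0.0328), with total-count scaling (−0.37, FDR 0.016) and with only the groups compared (−0.46, FDR 0.0101).

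Between successive times the members did not move as 1 group. From 1 to 4 h, 8 members rose and 2 fell (Mavs and Tmem173), against 19.8% and 19.1% of all genes. From 4 to 12 h, 2 rose (Mavs and Zbp1; 16.7% of all genes) and 4 fell (Ifih1, Tmem173, Ifi204 and Ifi205; 19.2% of all genes). From 12 to 24 h, 1 rose (Tmem173; 5.31% of all genes) and 4 fell (Ifih1, Ifi204, Ifi205 and Tbk1; 8.9% of all genes).

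IL-4 and IL-13 moved few of the members. After 12 h of IL-4, 1 of the 7 members tested was higher (4.38% of 9252 genes) and 0 were lower (3.25%). After 12 h of IL-13, 1 of 7 was higher (5.61%) and 0 were lower (4.49%). DESeq2 also called 0 lower, and at an unadjusted p under 0.05 in edgeR 1 was lower with each cytokine, Ifih1. The member that was higher was Zbp1 in both cases. Its samples had 8.11, 7.32 and 6.4 CPM with IL-4 and 4.5, 7.41 and 9.01 CPM with IL-13, all above the 3 controls. The fold change was 4.46 with IL-4 (log2 2.16 ± 0.52, FDR 0.00243) and 4.21 with IL-13 (log2 2.07 ± 0.52, FDR 0.00284), far below the 377-fold of IFN-γ-primed LPS at 12 h. Both rest on 7 to 16 counts per treated sample against 1 to 5 in control, and with DESeq2 the IL-13 change did not pass (FDR 0.0204) and IL-4 was given no adjusted p. Without control replicate 1 the log2 fold changes were 2.94 and 2.85. The IL-4 call was also lost without control replicate 2 (log2 2.003, FDR 0.0177), control replicate 3 (1.78, FDR 0.0299), IL-4 replicate 1 (2.08, FDR 0.0167) or IL-4 replicate 2 (2.16, FDR 0.0114), and the IL-13 call without control replicate 2 (1.92, FDR 0.0193), control replicate 3 (1.70, FDR 0.0345), IL-13 replicate 2 (2.03, FDR 0.0122) or IL-13 replicate 3 (1.85, FDR 0.0254).

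The other 6 members tested did not pass with either cytokine. Ifih1 was at 8.11, 16.5 and 17.3 CPM with IL-4 and at 13.5, 16.0 and 11.3 CPM with IL-13, below every control sample, with log2 fold changes of −0.50 ± 0.25 (FDR 0.201) and −0.56 ± 0.25 (FDR 0.117). Ifi204 was at 48.7, 59.1 and 46.1 CPM with IL-4 (log2 0.14 ± 0.15, FDR 0.647). With IL-13 it was at 50.7, 67.8 and 72.1 CPM, all above control, and its log2 fold change of 0.42 ± 0.15 did not pass (FDR 0.041), although it did without IL-13 replicate 1 (0.55, FDR 0.00369). Mavs was at 59.7, 69.5 and 55.1 CPM with IL-4 and at 69.4, 70.1 and 63.1 CPM with IL-13, where it had its highest mean of the 9 conditions (log2 0.16 ± 0.13, FDR 0.471, 95% interval −0.10 to 0.42). For IL-4 and IL-13 in turn, the 95% intervals of Tmem173 were −0.25 to 0.39 and −0.10 to 0.52, those of Tbk1 were −0.47 to 0.12 and −0.51 to 0.08, and those of Dhx58, at 5.79 to 12.8 CPM over both groups, were −0.60 to 0.69 and −0.76 to 0.54. Ddx58 (2 to 7 counts per sample), Mb21d1 (1 to 6) and Ifi205 (0 to 2) had too few counts to pass the filter and were not tested. The IL-4 and IL-13 groups were not told apart by any of the 7 members tested with edgeR (0 called by edgeR or DESeq2 and 0 at an unadjusted p under 0.05, against 0.108% of all genes called in either direction), and the smallest of their adjusted p-values was 0.739, for Ifi204.

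At 12 h, IFN-γ-primed LPS and each alternative stimulus were also compared directly. Against IL-4, 7 of the 9 members tested were higher (22.1% of 9380 genes) and 1, Tmem173, was lower (20.6%), and against IL-13 the same 7 were higher (21.9%) and Tmem173 was lower (20.3%). Zbp1 was 87.2-fold higher than with IL-4 and 92.1-fold higher than with IL-13 (log2 6.45 ± 0.16 and 6.52 ± 0.16, FDR 7.13e-28 and 4.43e-28). Ddx58 was 44.1-fold and 38.5-fold higher, Ifih1 22.5-fold and 23.5-fold, Dhx58 21.3-fold and 23.6-fold, and Ifi204 12.2-fold and 10.0-fold. Tbk1 was 2.29-fold and 2.34-fold higher. Ifi205 had 5103 counts over the 3 IFN-γ-primed LPS libraries, 1 over those of IL-4 and 3 over those of IL-13, a ratio of 4346 (95% counting interval 780 to 171706) and 1496 (511.6 to 7256). Tmem173 was lower by a log2 fold change of −0.63 ± 0.19 against IL-4 (FDR 0.00448) and −0.78 ± 0.18 against IL-13 (FDR 0.000468). The first was lost with DESeq2 (FDR 0.0194) and without IFN-γ-primed LPS replicate 1 (−0.49, FDR 0.046), IL-4 replicate 1 (−0.55, FDR 0.0315) or IL-4 replicate 3 (−0.58, FDR 0.0213). Mavs did not pass against either (log2 −0.04 ± 0.15, FDR 0.857, and −0.14 ± 0.15, FDR 0.45), and with total-count scaling it was lower against IL-13 (−0.52, FDR 0.00218).

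In RAW264.7 cells, LPS alone for 4 h raised the RNA sensors and Zbp1. Of 9 members tested, 5 were higher (15.1% of 9406 genes) and 0 were lower (12.8%), also with DESeq2. With a log2 cutoff of 2 added, 3 were higher (2.39%). At an unadjusted p under 0.05, 1 member was lower, Tmem173. Ifih1 went from 9.64 and 6.09 CPM to 72.9 and 82.8 CPM, an 11.1-fold rise (log2 3.48 ± 0.21, FDR 3.84e-59). Zbp1 went from 1.84 and 2.81 CPM to 11.1 and 14.6 CPM (log2 2.63 ± 0.43, FDR 9.76e-09), and Dhx58 from 17.9 and 11.2 CPM to 43.7 and 49.3 CPM (log2 1.85 ± 0.20, FDR 2.54e-18). Ddx58 went from 1.38 and 3.74 CPM to 8.36 and 16.3 CPM (log2 2.45 ± 0.42, FDR 7.66e-08), and its change was 3.33 without control replicate 2 and, just missing the cutoff, 1.89 without LPS replicate 2 (FDR 0.0111). The samples of the 2 groups did not overlap for any of these. With 2 samples against 2 they were also apart for Mavs, Tmem173 and Mb21d1, which did not pass, and for 8 members in all. The share of all genes without overlap was not computed. Ifi204, at 17.0 and 10.8 CPM in control and 20.0 and 22.2 CPM with LPS, passed narrowly (log2 0.78 ± 0.25, FDR 0.00802). That call was lost with DESeq2 (FDR 0.191), with total-count scaling (FDR 0.0503), with unstranded counts (FDR 0.0106), and without control replicate 2 (0.51, FDR 0.167), LPS replicate 1 (0.83, FDR 0.0289) or LPS replicate 2 (0.73, FDR 0.0837).

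The remaining members did not pass in RAW264.7. Mavs was at 62.9 and 60.9 CPM in control and at 46.9 and 44.7 CPM with LPS (log2 −0.25 ± 0.15, FDR 0.181). Tmem173 was at 59.2 and 60.9 CPM and then at 37.6 and 44.7 CPM (log2 −0.36 ± 0.16, FDR 0.0556), and with total-count scaling, which lowers the median of all genes by 0.18, its change of −0.54 passed (FDR 0.00258). Mb21d1 was at 22.5 and 24.3 CPM and then at 15.8 and 20.9 CPM (log2 −0.16 ± 0.23, FDR 0.623), and Tbk1 was at 37.2 and 28.6 CPM and then at 28.3 and 29.3 CPM (log2 −0.01 ± 0.19, FDR 0.971). Ifi205 had 0 and 1 counts in control and 0 in both LPS libraries, where 3 counts is taken as the floor of detection, so no fold change is given. Leaving out 1 library of a pair leaves a lone sample, which is then assumed to vary like the other group.

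Before stimulation, the members were called different between the line and BMDMs no more often than all genes were, in either direction. Mb21d1 was 8.66-fold higher in RAW264.7 than in control BMDMs (log2 3.11 ± 0.38, FDR 3.69e-13), the only member higher (32.9% of 10269 genes), and 3 members were lower (34.7%). Its BMDM control level rests on 1, 3 and 7 counts, and without BMDM control replicate 3 the log2 difference was 3.95. The lower members were Ifi204 (log2 −2.02 ± 0.20, FDR 4.78e-18), Ifih1 (−1.58 ± 0.27, FDR 4.9e-08) and Tbk1 (−0.93 ± 0.17, FDR 2.94e-07). The RAW264.7 control level of Mb21d1, 23.4 ± 1.31 CPM (SD, n = 2), was its highest in the 9 conditions, and both RAW264.7 control samples lay above the highest BMDM sample of any group in CPM, 16.6 CPM at 4 h of IFN-γ-primed LPS. With TMM over all samples the difference was smaller, at 18.01 ± 1.16 in RAW264.7 control and 16.7 ± 4.60 at 4 h in BMDMs. Tmem173 did not pass (log2 0.31 ± 0.16, FDR 0.067), and it did with total-count scaling (0.59, FDR 0.000506). With the cell types differing also in strain, medium and origin, cell type, strain and culture cannot be told apart.

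**Figure D5:**
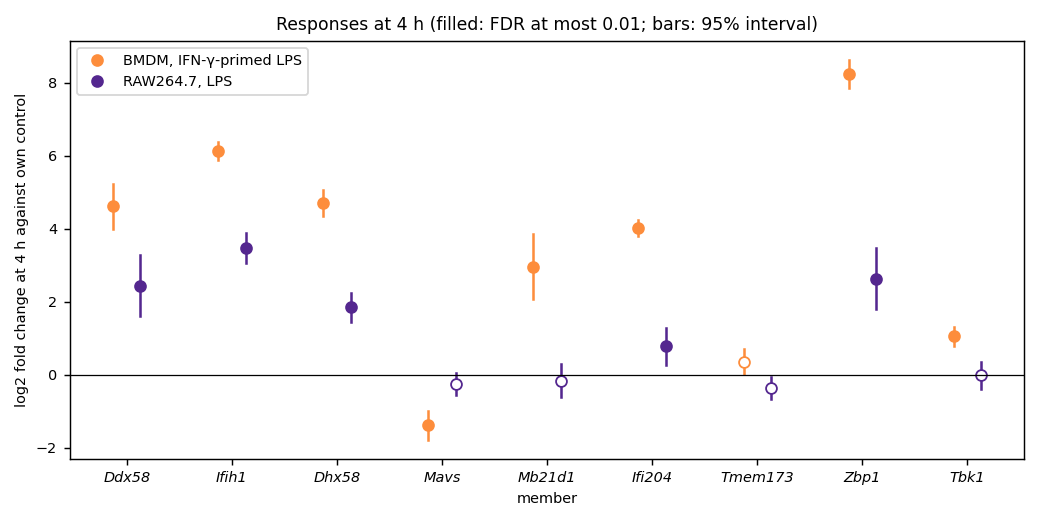
Log2 fold change at 4 h against the cells' own control (vertical axis) of 9 members, in BMDMs with IFN-γ-primed LPS (orange, 3 against 3 samples) and in RAW264.7 with LPS alone (purple, 2 against 2). Bars are 95% intervals and filled points passed an FDR of 0.01; Zbp1 differs most, at 8.25 in BMDMs and 2.63 in RAW264.7, and Ifi205 is left out because RAW264.7 held 1 count of it.

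At 4 h the responses of the 2 cell types differed for all 9 members whose change could be estimated, by a test of the difference itself. The RAW264.7 response minus the BMDM response was negative for 8 of them and positive for Mavs, whose fold change was less negative in RAW264.7. For Tmem173 the 2 responses had opposite signs and neither passed. Among all genes the RAW264.7 response was the lower one in 16.4% and the higher one in 11.1%. The difference on the log2 scale was −5.73 ± 0.80 for Zbp1 (FDR 5.52e-10), −3.33 ± 0.29 for Ifi204 (FDR 2.97e-20), −3.22 ± 0.49 for Mb21d1 (FDR 8.98e-09), −2.95 ± 0.33 for Dhx58 (FDR 2.66e-14) and −2.75 ± 0.35 for Ifih1 (FDR 7.3e-12). It was −1.15 ± 0.24 for Tbk1 (FDR 2.58e-05), which was −0.72 and just missed the cutoff with total-count scaling (FDR 0.0103), and 1.05 ± 0.25 for Mavs (FDR 0.000299). Without BMDM control replicate 1 the value of Zbp1 was −6.51, and without BMDM control replicate 3 that of Mb21d1 was −4.06. Those of Ddx58 (−2.27 ± 0.72, FDR 0.0088) and Tmem173 (−0.81 ± 0.23, FDR 0.00314) were less firm, and with total-count scaling they were −1.83 (FDR 0.0299) and −0.38 (FDR 0.194). Ddx58 also missed it with unstranded counts (FDR 0.0116). Without RAW264.7 control replicate 2 the Ddx58 value was −1.41 (FDR 0.413), and it also missed the cutoff without BMDM control replicate 1 (FDR 0.0103) or 2 (FDR 0.0192), IFN-γ-primed LPS replicate 3 (FDR 0.0139) or RAW264.7 LPS replicate 1 (FDR 0.0144). Tmem173 missed it with DESeq2 (FDR 0.0311), with at least 10 counts in every sample (FDR 0.0121) and without BMDM control replicate 3 (FDR 0.0205), RAW264.7 control replicate 2 (FDR 0.0138) or RAW264.7 LPS replicate 1 (FDR 0.0243). The BMDMs received IFN-γ with LPS and the cell line LPS alone, so cell type and stimulus cannot be told apart.

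The other genes of the pathway were read from a list of 53, of which 45 were tested in the time course. In classically activated BMDMs, 16, 26, 24 and 25 of these were higher after 1, 4, 12 and 24 h, and 3, 5, 9 and 7 were lower. The background shares are those given above for all genes, and the list's median log2 fold change was 0.35, 1.00, 0.86 and 0.71. Among regulators of RNA sensing, 7 of 11 tested were higher at 4, 12 and 24 h, and 1, 2 and 1 were lower. Among DNA-sensing genes, 6 of 10 were higher and 2 lower at those times. Of the PYHIN relatives, at 1 h Mnda went from 3.36 ± 0.94 to 114 ± 6.34 CPM (SD, n = 3; log2 5.24 ± 0.21, FDR 7e-26) and Ifi203 from 14.4 ± 2.95 to 160.2 ± 8.18 CPM (log2 3.66 ± 0.15, FDR 1.02e-25). Pyhin1 was at 9.64 ± 2.69 CPM in control and 1052 ± 111 CPM at 12 h (log2 7.07 ± 0.21, FDR 1.59e-18). Pydc4 was at 0 in control and at 83.6 ± 8.99 CPM at 4 h and 227 ± 37.7 CPM at 12 h. The inflammasome DNA sensor Aim2 went from 38.8 ± 4.48 CPM in control to 164 ± 5.35 CPM at 4 h. It then fell to 76.4 ± 2.19 CPM at 12 h (log2 −1.32 ± 0.12 against 4 h, FDR 2.08e-13), and was at 55.6 ± 4.18 CPM at 24 h.

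Downstream of the sensors, 8 of the 12 kinase, scaffold and factor genes were higher at 4 h. Irf7, the interferon-inducible factor of the second wave of interferon, went from 6.68 ± 1.27 CPM to 764 ± 112 CPM at 4 h (log2 7.34 ± 0.15, FDR 1.39e-38) and 1908 ± 17.0 CPM at 24 h (log2 8.36 ± 0.15, FDR 8.88e-41). Ifnb1, the interferon that the pathway makes, was at 0 in control, 63.3 ± 19.1 CPM at 1 h, 16.8 ± 3.16 CPM at 4 h and 0.862 ± 0.762 CPM at 12 h, and the falls from 1 to 4 h (log2 −1.59 ± 0.25, FDR 7.61e-06) and from 4 to 12 h (−4.40 ± 0.57, FDR 4.46e-07) passed. Ifnb1, like Tmem173, had its highest mean at 1 h. Genes that remove nucleic acids were mixed, with 2 higher and 2 lower of 7 at 4 h, where 26% and 25.6% of all genes were called. At that time Trex1 went from 18.5 ± 3.57 CPM in control to 485 ± 48.6 CPM, and Samhd1 from 86.4 ± 8.88 to 659 ± 42.1 CPM. The lowest were Enpp1, which degrades the cGAS product, from 32.7 ± 2.60 to 4.04 ± 1.73 CPM at 4 h (log2 −2.48 ± 0.29, FDR 2.11e-10), and the lysosomal nuclease gene Dnase2a, from 143 ± 9.34 to 42.1 ± 3.17 CPM (log2 −1.24 ± 0.13, FDR 1.01e-11).

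Enpp1 and Dnase2a moved the other way with the alternative stimuli. Enpp1 rose with IL-4 (51.4 ± 3.95 CPM, log2 0.65 ± 0.16, FDR 0.00397) and IL-13 (59.3 ± 12.2 CPM, log2 0.82 ± 0.16, FDR 7.83e-05), and Dnase2a rose with both (log2 0.44 ± 0.10, FDR 0.00155, and 0.36 ± 0.10, FDR 0.00995). They were 2 of 40 list genes tested, a share near the 4.38% and 5.61% of all genes called higher with IL-4 and IL-13, and no other list gene was called higher with either. Tbkbp1 (log2 −0.84 ± 0.21, FDR 0.0022) and Ikbke (−0.49 ± 0.14, FDR 0.00985), a scaffold of TBK1 and its closest relative among kinases, were lower with IL-13. These list calls were not stable. With all samples 2 list genes were called with IL-4 and 4 with IL-13, DESeq2 called 1 with each, and 0 were called with IL-4 without control replicate 2 or IL-4 replicate 2. With IL-13, 2 were called without control replicate 1, control replicate 2 or IL-13 replicate 3, and 1 without control replicate 3 or IL-13 replicate 2. The 6 libraries of IL-4 and IL-13 are among those with the lower antisense share of Rn45s given above. In RAW264.7 with LPS, 11 of 43 list genes tested were higher and 5 lower, against 15.1% and 12.8% of all genes, and DESeq2 called 10 in all. The highest fold change was that of Ikbke, from 61.6 ± 0.203 to 416 ± 13.8 CPM (SD, n = 2; log2 2.93 ± 0.10, FDR 7.46e-173). Rnf125, Zcchc3, Ifna2 and Ifna4 had too few counts for any test.

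Compared per length, as mean CPM per kilobase of exon, the order of the members changed with stimulation. The exon lengths are those of GENCODE M21, and the gene models behind the counts are not given in the sources used here and may differ. In control BMDMs the highest were Ifi204 (20.3), Mavs (19.0), Tmem173 (17.3) and Tbk1 (17.1), and all RNA sensors lay between 1.07 and 3.6. At 4 h of IFN-γ-primed LPS, Ifi205 was highest at 648 ± 40.3 (SD, n = 3), followed by Ifi204 at 229 ± 5.02, Ifih1 at 175 ± 6.65 and Zbp1 at 162 ± 1.59, while Mavs was at 5.08 ± 1.43 and Mb21d1 at 3.02 ± 0.966. In RAW264.7 control cells, Tmem173 (26.1), Mavs (20.0) and Tbk1 (10.9) led, and Mb21d1 at 5.74 ± 0.321 (SD, n = 2) lay above Ifih1 at 1.44 ± 0.459.

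Across the 9 conditions, the order of mean CPM put the 4 and 12 h IFN-γ-primed LPS groups among the first 3 for Ddx58, Ifih1, Dhx58, Zbp1, Ifi204, Ifi205 and Tbk1. The samples of neighbouring groups at the top overlapped for Ddx58 (12, 4 and 24 h), Dhx58 (24, 4 and 12 h), Zbp1 (24 and 12 h) and Ifi204 (4 and 12 h). They were apart in CPM for Ifih1 (4, 1, 12 and 24 h in turn), Ifi205 (4, 12, 24 and 1 h) and Tbk1 (12, 4 and 24 h). The Tbk1 step from 4 to 12 h did not pass in edgeR (log2 −0.07 ± 0.12, FDR 0.644). With TMM over all samples Tbk1 was at 102 ± 2.70 at 4 h and 96.8 ± 3.37 at 12 h. For Mavs the order began with IL-13, RAW264.7 control, IL-4 and control BMDMs, the last 3 of which overlapped. IL-13 was apart from RAW264.7 control but not from IL-4, whose highest sample, 69.5 CPM, lay within the IL-13 range of 63.1 to 70.1 CPM. The Mavs order ended with 4 h of IFN-γ-primed LPS, apart from all others. Tmem173 had 1 h first and 12 h last, each apart from its neighbour, and from IL-13 to 4 h, 6 groups in between overlapped each with the next. Mb21d1 had RAW264.7 control and RAW264.7 LPS first, and all lower neighbours overlapped except at the step from 1 h of IFN-γ-primed LPS to IL-4.

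The genes whose mean log2(CPM + 1) followed a member most closely over the 9 conditions were taken from 10679 genes, as a description in which all points share libraries and depth. Ddx58 was followed by Rnf114 (Pearson r = 0.985), Stat2 (0.983) and Sp100 (0.980). Ifih1 was followed by Stx11 (0.987), Nfkbib (0.982) and Rffl (0.978), and Dhx58 by Gm14005 (0.993), Irf7 (0.989) and Dst (0.987). For Zbp1 they were Ccl5 (0.978), Psme2 (0.977) and Igtp (0.972), for Ifi205 Tgtp2 (0.998), Il12b (0.998) and Gbp6 (0.995), and for Ifi204 Mfsd7a (0.993), Slco3a1 (0.992) and Gm5431 (0.990). The adaptors kept other company. Mavs was most like Midn (0.994), Sppl2b (0.992) and Snap47 (0.989), each of which also had its lowest mean at 4 h (5.01, 7.23 and 12.9 CPM). Tmem173 had the loosest neighbours, Ero1lb (0.914), Rtcb (0.900) and Rbm39 (0.897). Tbk1 was followed by Bambi-ps1 (0.984), Fbxw17 (0.982) and Rap1gap2 (0.979). Among the members themselves r was 0.967 for Ddx58 and Dhx58, 0.963 for Zbp1 and Ifi205, 0.951 for Ifi204 and Tbk1, and −0.817 for Ifih1 and Mavs.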

How the data were processed

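RNA was depleted of ribosomal RNA, made into strand-specific libraries and sequenced on an Illumina HiSeq2000. The submitters' processing notes name CASAVA 1.8.2, Trimmomatic 0.33, STAR 2.5.1 and DESeq2, and the genome was mm10; the annotation release is not given in the sources used here. The authors deposited raw read counts per gene symbol, without normalization, for both strands and unstranded, from uniquely mapped reads, and the sense-strand counts were used. Reads assigned to no gene or ambiguously were 63.0% to 69.3% and were left out.

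Rn45s was removed. Genes past filterByExpr were fitted with edgeR 4.0.16 (R 4.3.3; TMM, robust quasi-likelihood, 1 mean per group, Benjamini-Hochberg adjustment over all genes tested, call at an FDR of at most 0.01). The time course, the alternative stimuli, RAW264.7, the 12 h stimuli and both cell types at 4 h were fitted separately, which gave 15 comparisons. The size of each log2 fold change was divided by the root of its F statistic to give its standard error. Where a group has few counts, a fitted fold change depends on the prior count. The fits were tested on simulated data. Figures used Python 3.11.15 and matplotlib 3.10.9.

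Replicates are labelled as separate samples, and triplicates came from independent RNA samples by the study's methods; the replicate pairs differed by more than sampling noise (chi-square over degrees of freedom 1.3 to 4.53). Same-numbered BMDM samples did not consistently deviate together (mean r = 0.0187, from −0.0718 to 0.188, over 63 pairs, against a mean of −0.00936 for differently numbered ones), so no pairing was used. The members and lists were chosen with earlier results of these data known. All members are named. In each comparison up to 3 list genes with the highest and 3 with the lowest fold change past the cutoff and at least 5 CPM are eligible. A selection of these is printed. Trex1 and Samhd1 at 4 h fall outside this rule and are given as levels only. The genes most like Mb21d1 over the conditions are not reported here. Alternatives were DESeq2 1.42.0, other scalings and filters, unstranded counts, Rn45s kept, a replicate block, fits of only the groups compared, and leaving out each sample.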

Additional observations from a re-analysis of the deposited data

Results flagged for a closer look

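The response to 4 h of stimulation differed between RAW264.7 (LPS) and BMDMs (IFN-γ-primed LPS) for 9 members, by edgeR's test of the difference between the 2 log2 fold changes. The RAW264.7 response minus the BMDM response was −2.27 for Ddx58, −2.75 for Ifih1, −2.95 for Dhx58, −3.22 for Mb21d1, −3.33 for Ifi204, −5.73 for Zbp1, −0.809 for Tmem173 and −1.15 for Tbk1, and it was 1.05 for Mavs. With total-count scaling the values of Ddx58 (−1.83, FDR 0.0299), Tmem173 (−0.38, FDR 0.194) and Tbk1 (−0.72, FDR 0.0103) did not pass, and without RAW264.7 control replicate 2 that of Ddx58 was −1.41 (FDR 0.413). Stimulus and cell type changed together, so which of them carries the difference cannot be told apart.

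Antisense counts over the 10 members, which no comparison used, were also higher after IFN-γ-primed LPS than in the control BMDM libraries, where they ran from 0.596 to 1.75 CPM. Their mean was 3.92 CPM at 1 h, 15.9 CPM at 4 h, 15.02 CPM at 12 h and 4.05 CPM at 24 h. As a percentage of the members' counts on both strands they were 0.253% to 0.769% in control and 0.401% to 0.603% at 1, 4 and 12 h. At 24 h they were 0.173% to 0.240%, below every control. The 24 h libraries are among those with the lower antisense share of Rn45s given above, and the part of that difference was not tested.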

How the results depend on the processing

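No called change reversed its direction under any alternative run. Of the members' own log2 fold changes under alternatives other than leaving out a sample, 1138 kept their side of the cutoff, 19 lost the call and 9 gained it, and with a sample left out 795 kept it, 39 lost it and 6 gained it; many of the changed ones are given beside their result, and beyond the values shown the cause was not tested. Requiring at least 10 counts in every sample left 6 of the 10 members to test (7 in RAW264.7), and of these 5 were called at 4 h, 5 at 12 h and 4 at 24 h against control, 6 from 1 to 4 h, 3 from 4 to 12 h, 0 with IL-4, 0 with IL-13, 3 in RAW264.7 with LPS, 5 in the 12 h comparison with IL-4, 5 in that with IL-13 and 5 in the comparison of both cell types. DESeq2 called 0 members with IL-4 and 0 with IL-13, and 1, 1 and 10 list genes with IL-4, IL-13 and RAW264.7 LPS. Fitting only the groups compared called 0 members and 2 list genes with IL-13, and unstranded counts called 2 list genes there.

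Leaving out each sample in turn gave 0 to 1 members and 0 to 2 list genes with IL-4. With IL-13 it gave 0 to 2 members, the 2 without IL-13 replicate 1, and 1 to 4 list genes, the 1 without control replicate 3 or IL-13 replicate 2 and the 4 without IL-13 replicate 1. In RAW264.7 with LPS it gave 3 to 5 members, the 3 without LPS replicate 2. Replicate numbers are shared by the groups but did not pair the samples. A fit with that number as a block called 6, 9, 9 and 7 members against control after 1, 4, 12 and 24 h, and the block changed the call of 2 member values, both of Ddx58: from 12 to 24 h it passed (log2 −0.59, FDR 0.000725), as it did between RAW264.7 and BMDM controls (log2 −1.68, FDR 0.00781). The condition of the highest mean was kept by 7 of 10 members under TMM over all samples, where Dhx58 and Tbk1 moved to 4 h and Zbp1 to 12 h. At this depth Mb21d1, Ddx58 and Zbp1 in control BMDMs rest on 1 to 7 counts per sample, and Ifi205 on 0 or 1.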
